A study of Mus musculus with 8 samples.

Results

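The SOCS family of cytokine feedback inhibitors, Socs1 to Socs7 and Cish, was followed in bulk RNA-seq libraries of sorted mouse marrow cells, 4 of them wild-type and 4 TOX knockout. The members were chosen by name, and each of the 8 symbols matched 1 of the 23846 entries of the deposited expression table. TOX is a nuclear HMG-box protein of developing lymphocytes, and the series title places the comparison in the formation of the common progenitor of innate lymphoid cells (ILCs). The labels give the genotype of each sample and nothing on age, sex, strain, the targeted allele or the sorted population, so that what limits the knockout as a model is not stated. They also do not say that samples came from separate animals, so p-values measure only the spread between these libraries, which may in part be technical. Column names carry a code of unstated meaning that is C4 in the 4 wild-type libraries, E3 in 3 knockout libraries and E2 in knockout library 11. This code cannot be told apart from the genotype.

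SOCS proteins are produced in response to cytokines and switch the same signalling off again. Cytokine receptors activate JAK kinases, which phosphorylate STAT transcription factors, and STATs induce several SOCS genes. Each SOCS protein has an SH2 domain that binds phosphotyrosine and a SOCS box that recruits elongin B, elongin C and a cullin E3 ubiquitin ligase to mark bound proteins for degradation, and SOCS1 and SOCS3 also carry a short kinase inhibitory region that blocks JAKs directly. In lymphocytes SOCS1 restrains responses to interferon gamma and to cytokines that use the common gamma chain, among them interleukin 7, and CIS, the product of Cish, restrains responses to interleukins 2 and 15.

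Libraries are named by the number in their column, 10, 16, 29 or 11, and values are FPKM, a read density corrected for gene length and for the number of reads mapped in each library. Where 4 values of a genotype are listed, they stand in the order of libraries 10, 16, 29 and 11. Summed FPKM ranged from 296777 to 365906 in wild type and from 208351 to 632604 in knockout. Tox itself lay between 92.4 and 123 FPKM in the wild-type libraries and between 0.107 and 2.34 in the knockout libraries, so every library matched its label. Knockout library 16 stood apart, with 7328 genes at an FPKM of at least 1 against 9263 to 10600 in the other 7 libraries, and in knockout library 29 globin transcripts held 58.6% of summed FPKM. Over the 10693 genes whose FPKM averaged 1 or more, the median log2 fold change was -0.52 as deposited, and -0.03 after median-ratio scaling between libraries. Log2 fold changes set knockout against wild type as differences of log2(FPKM + 1), so that changes of low genes are understated, and unless stated otherwise they come from limma on values as deposited.

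Socs1 was the most abundant family member in wild-type cells and was much lower in knockout cells. Socs1 (chromosome 16, 10783809 to 10785536, mm10) had 58.0, 47.7, 42.1 and 25.0 FPKM in wild type. It had 5.003, 12.96, 2.27 and 3.42 FPKM in knockout. The groups did not overlap, and the highest knockout value, in library 16, stayed under the lowest wild-type value, in library 11. The wild-type mean was 43.2 ± 13.8 FPKM and the knockout mean 5.91 ± 4.83 (SD, n = 4 each), a ratio of means of 7.30. The log2 fold change was -2.84 (SE 0.48, 95% confidence interval -3.88 to -1.81), with a limma adjusted p of 0.00794 over all tested genes. In these sorted pools fewer cells expressing a gene and less of its RNA per cell cannot be told apart.

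Socs1 was the only member to pass at an adjusted p under 0.05, of 7 tested, where 1.72% of all tested genes fell and 0.196% rose. Without adjustment 3 members, Socs1, Socs2 and Socs4, had a limma p under 0.05, a level that 20.6% of all tested genes reached. The call depended on the scaling between libraries. Median-ratio scaling called 1.96% of genes, 1.09% lower and 0.870% higher in knockout, and none of the members, while quantile normalization called 2.44%, 1.36% lower and 1.08% higher, and 1 member, Socs1. With median-ratio scaling the log2 fold change of Socs1 was -2.23 with a limma adjusted p of 0.104, whereas with quantile normalization it was -2.48 with an adjusted p of 0.0457. With any 1 library left out Socs1 still passed, with log2 fold changes between -3.26 and -2.56 and limma adjusted p between 0.000550 and 0.0464. Without knockout libraries 16 and 29 it was -3.04 (adjusted p = 0.00195). Within the first barcode run, libraries 10 and 16, the log2 fold change was -2.55 (limma adjusted p = 0.628), and within the second, libraries 29 and 11, it was -3.14 (adjusted p = 0.0283).

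**Figure D1:**
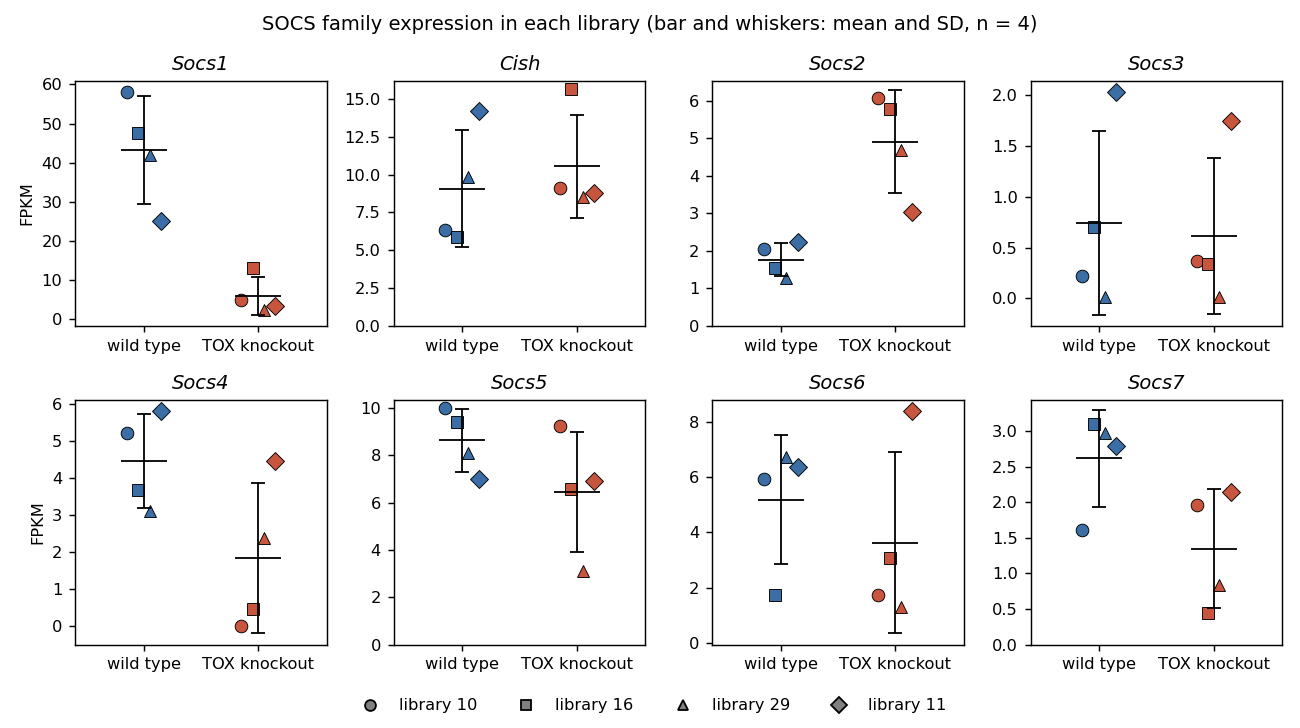
FPKM (linear axis) of each SOCS family gene in the 4 wild-type (blue) and 4 TOX knockout (red) libraries, with symbols for the library number and bars for the mean and SD (n = 4 each). Socs1 and Socs2 are the members whose groups do not overlap, Socs1 lower and Socs2 higher in knockout, and Socs3 is highest in library 11 of both genotypes.

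The stretch just upstream of the transcription start is shown for Socs1, the member that fell, and for Cish, the STAT5-induced member that did not pass, because both are textbook targets of cytokine signalling and their levels parted in these cells. Socs3, another STAT-induced member, is shown beside them. The sequences are the 250 bases before the RefSeq start on build GRCm38.p6, read 5′ to 3′ on the strand of the gene. For Cish this window ends at 107296658, while the expression entry starts at 107296689, so a short gap lies between them. Capitals mark matches on either strand to the core of an interferon-stimulated response element (ISRE), a pair of GAAA with any 2 bases between them that interferon regulatory factors bind, or to TTCNNNGAA, the core bound by STAT dimers. The wider STAT core with 1 more base in its gap, preferred by STAT6, was searched too. Socs1 lies on the minus strand at chr16:10785537-10785786, Cish on the plus strand at chr9:107296409-107296658 and Socs3 on the minus strand at chr11:117969367-117969616.
Socs1: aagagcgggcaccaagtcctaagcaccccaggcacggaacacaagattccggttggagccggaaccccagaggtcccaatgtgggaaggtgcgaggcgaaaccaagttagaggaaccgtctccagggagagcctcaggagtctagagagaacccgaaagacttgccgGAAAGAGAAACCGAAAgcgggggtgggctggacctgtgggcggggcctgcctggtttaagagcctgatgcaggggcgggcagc
Cish: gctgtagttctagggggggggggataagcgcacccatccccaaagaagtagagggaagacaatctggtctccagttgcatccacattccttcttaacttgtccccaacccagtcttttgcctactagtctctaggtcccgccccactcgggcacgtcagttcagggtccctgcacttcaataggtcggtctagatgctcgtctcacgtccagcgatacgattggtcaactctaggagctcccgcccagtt
Socs3: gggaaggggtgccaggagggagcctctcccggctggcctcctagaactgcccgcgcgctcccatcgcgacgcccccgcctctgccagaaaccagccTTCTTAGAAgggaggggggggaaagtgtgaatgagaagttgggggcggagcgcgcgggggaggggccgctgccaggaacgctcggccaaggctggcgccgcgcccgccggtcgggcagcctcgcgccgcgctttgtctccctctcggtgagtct

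The Socs1 window held 2 matches to the ISRE core that overlap each other by 4 bases, GAAAGAGAAA at 83 to 74 and GAAACCGAAA at 77 to 68 bases before the start, and no match to either STAT core. Of 32851 windows of the same length in the promoter table, 2.98% held the ISRE core, 7.02% held TTCNNNGAA and 5.85% held its wider form. The Socs3 window held 1 STAT core, TTCTTAGAA, at 154 to 146 bases before the start, and the Cish window held none of these 3 motifs. The core GATA, with A or T before it and A or G after it, was absent from all 3 windows (26.5% of all windows held at least 1 on either strand), and the E-box pattern CANNTG occurred once, as CAGTTG in the Cish window (66.2% of all windows). A match describes letters only, and its absence applies to this window alone. The table matched 4 of the members, the other being Socs4, whose window held none of these motifs. The Socs4 window ends at 47276919, before the start of its expression entry at 47277143.

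Cish, which encodes CIS and is induced through STAT5, did not pass between genotypes. Cish (chromosome 9, 107296689 to 107301961) was at 6.37, 5.86, 9.84 and 14.2 FPKM in wild type and at 9.14, 15.6, 8.54 and 8.81 in knockout. The groups overlapped, and knockout library 16 lay apart from the other knockout libraries. The log2 fold change was 0.23 (95% confidence interval -0.64 to 1.10, limma adjusted p = 0.720), an interval that leaves room for changes in either direction. With median-ratio scaling it was 0.81 (adjusted p = 0.392), and within the second barcode run, libraries 29 and 11, it was -0.41.

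Within each library the balance of Socs1 and Cish was turned around. The FPKM ratio of Socs1 to Cish, which scaling each library by a single factor cannot change, was 9.12, 8.14, 4.27 and 1.76 in wild type. It was 0.548, 0.828, 0.266 and 0.388 in knockout. Socs1 exceeded Cish in every wild-type library and Cish exceeded Socs1 in every knockout library. In knockout library 16 this order rested on Cish at 15.6 FPKM, against 12.96 for Socs1. The other knockout libraries had Cish at 8.54 to 9.14. Against Socs5 and Socs2 the order did not turn in every library. Socs1 stayed above both in knockout library 16 (ratios 1.98 and 2.24) and above Socs2 in knockout library 11 (1.12).

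Socs2, which is induced by STAT5 and limits growth hormone receptor signalling, was the member with higher values in knockout. Socs2 (chromosome 10, 95411490 to 95416857) was at 2.04, 1.54, 1.28 and 2.23 FPKM in wild type and at 6.08, 5.79, 4.70 and 3.05 in knockout. The lowest knockout value was above the highest wild-type value, an arrangement found in 1.09% of tested genes, while 11% had every knockout value below every wild-type value. The means were 1.77 ± 0.438 and 4.90 ± 1.37 FPKM (SD, n = 4 each), with a log2 fold change of 1.07 (95% confidence interval 0.23 to 1.91). The difference did not pass over all genes (limma adjusted p = 0.173), nor did it with median-ratio scaling (1.54, adjusted p = 0.112) or quantile normalization (1.56, adjusted p = 0.0786). An exact two-sided permutation test of Socs2 alone gave p = 0.0286, the smallest that 4 against 4 libraries allow. Any gene whose groups do not overlap receives this value, as 12.1% of tested genes did in either direction. It therefore restates the lack of overlap and adds no further evidence.

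**Figure D2:**
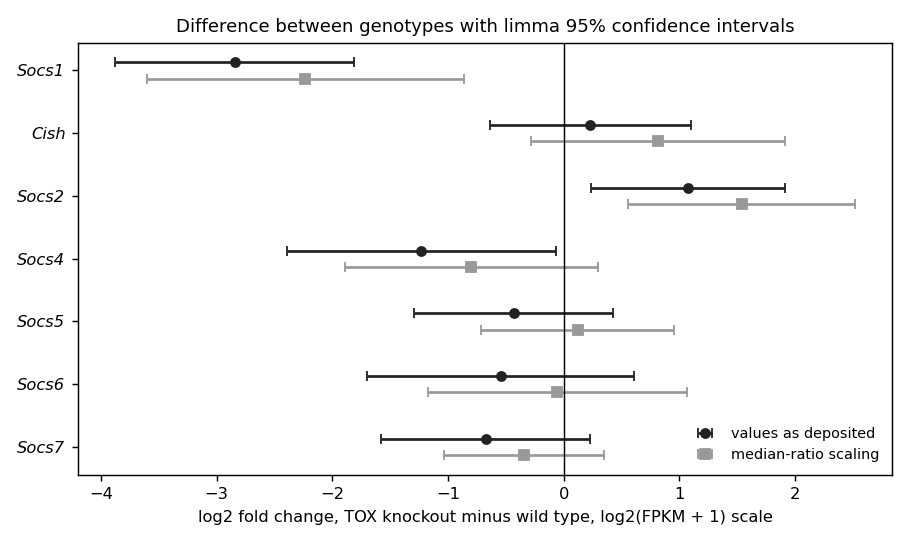
Log2 fold change of the 7 tested SOCS family genes, TOX knockout against wild type, as differences of log2(FPKM + 1), with 95% confidence intervals from limma for values as deposited (black circles) and after median-ratio scaling (grey squares). The interval of Socs1 lies below 0 and that of Socs2 above 0 under both scalings, before adjustment over all genes, and those of Cish, Socs5, Socs6 and Socs7 include 0 under both.

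Socs3, the inhibitor of receptors that signal through gp130 and of the G-CSF receptor, was the least abundant member in both genotypes. Socs3 (chromosome 11, 117966087 to 117969366) stayed under the filter on low values, with 0.219, 0.705, 0.0148 and 2.03 FPKM in wild type and 0.370, 0.340, 0.0144 and 1.74 in knockout. It was lowest in both libraries numbered 29 and highest in both numbered 11, and an exact two-sided permutation test between genotypes gave p = 0.83. The immediate early gene Fos, of the STAT3 target list and picked out after its values were seen, was also highest in both libraries numbered 11, at 135 and 321 FPKM against 6.14 to 17.98 in the other 6. Junb, a further early response gene picked the same way, stood at 130 and 79.3 FPKM in the wild-type and knockout libraries numbered 11, against 4.26 to 20.7 elsewhere.

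Socs4 and Socs5 are a closely related pair with long amino-terminal regions, known for targeting the EGF receptor. Socs4 (chromosome 14, 47277143 to 47291591) had 5.22, 3.68, 3.11 and 5.83 FPKM in wild type. In the knockout it was listed at 0 in library 10 and had 0.461, 2.39 and 4.47 FPKM in libraries 16, 29 and 11, so that 3 knockout libraries lay under the wild-type range and library 11 within it. Its log2 fold change of -1.23 (95% confidence interval -2.39 to -0.07) did not pass over all genes (limma adjusted p = 0.226). Socs5 (chromosome 17, 87107679 to 87137588) ranged from 6.98 to 10.0 FPKM in wild type and from 3.09 to 9.24 in knockout, and its log2 fold change was -0.43 on deposited values (95% confidence interval -1.29 to 0.43, limma adjusted p = 0.492) and 0.12 with median-ratio scaling.

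Socs6 and Socs7 are the pair best known for acting on insulin receptor substrates and, for SOCS6, on the stem cell factor receptor KIT. Socs6 (chromosome 18, 88867880 to 88894207) was at 5.95, 1.71, 6.73 and 6.39 FPKM in wild type and at 1.72, 3.07, 1.28 and 8.42 in knockout. Its range in knockout was wider than in wild type and held the highest value of the 8 libraries, in library 11. The log2 fold change was -0.54 (95% confidence interval -1.70 to 0.61, limma adjusted p = 0.519). Socs7 (chromosome 11, 97362551 to 97398542) ranged from 1.61 to 3.10 FPKM in wild type and from 0.440 to 2.15 in knockout, with overlapping groups and a log2 fold change of -0.68 (95% confidence interval -1.58 to 0.23, limma adjusted p = 0.342).

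FPKM is scaled to gene length, so levels can be ordered across the family. In wild type Socs1 led with a mean of 43.2 FPKM, above 89.1% of tested genes, and its range did not meet that of any other member. Cish (9.06) and Socs5 (8.62) followed with overlapping ranges, then Socs6 (5.20) and Socs4 (4.46), which overlapped, then Socs7 (2.62), Socs2 (1.77) and Socs3 (0.742), each overlapping its neighbour. In knockout the order began with Cish (10.5), Socs5 (6.44), Socs1 (5.91) and Socs2 (4.90), and each of the 8 members overlapped the next one in range. Socs1 thus stood at rank 3 by mean in knockout, above 48.8% of tested genes, without separation from its neighbours.

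As a share of the summed FPKM of the 8 genes in the same library, Socs1 made up 38.2 to 64.9% of wild-type and 8.77 to 28.6% of knockout totals. Socs2 made up 1.72 to 3.40% of wild-type and 7.82 to 20.3% of knockout totals, and Cish 7.12 to 21.7% and 22.6 to 36.9%. The shares of these 3 genes did not overlap between genotypes, and shares within a library are tied to each other, so that a lower share of Socs1 raises the others. The share of Socs5 also shifted without overlap, from 10.7 to 12.8% up to 13.4 to 27.6%. Its own FPKM overlapped between genotypes, with a negative log2 fold change (-0.43), and the FPKM of Cish overlapped too. The higher shares of Socs5 and Cish are thus not separate changes in their levels. The summed FPKM of the 7 members other than Socs1 ran from 25.99 to 40.4 in wild-type and from 20.8 to 35.5 in knockout libraries, so the groups overlapped once Socs1 was set aside.

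**Figure D3:**
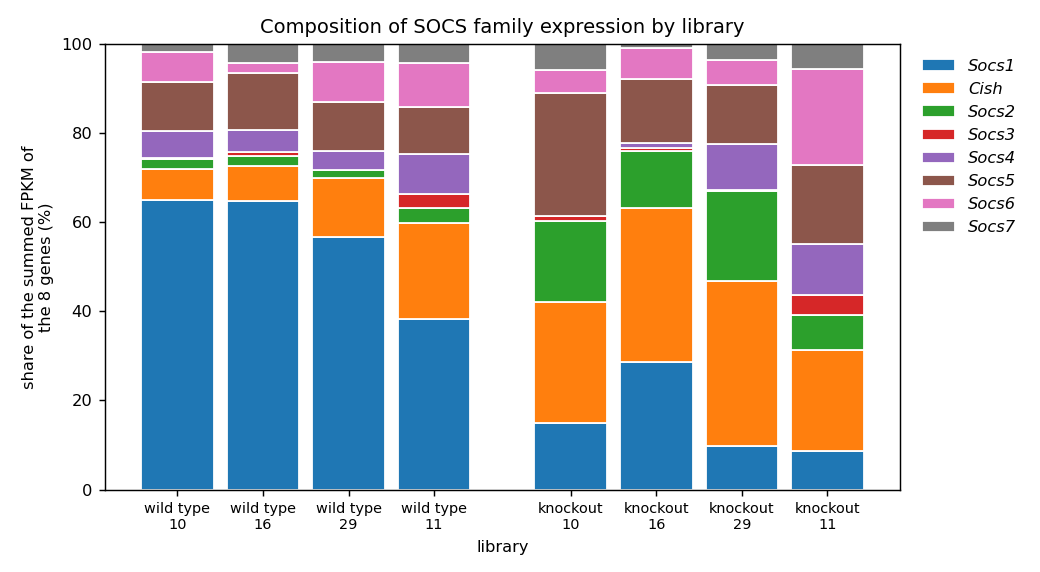
Stacked bars of the percent that each SOCS family gene contributes to the summed FPKM of the 8 genes, 1 bar per library. Socs1 fills 38.2 to 64.9% of the wild-type bars and 8.77 to 28.6% of the knockout bars, where Cish and Socs2 fill more. Shares within a bar are tied to each other, and the FPKM of Cish overlapped between genotypes.

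Among 6288 or 6289 named genes averaging an FPKM of 5 or more, those whose log2 values ran most like Socs1 over the 8 libraries included Bcl11b, a T cell commitment factor (Pearson r = 0.98), and Pdcd1, the inhibitory receptor PD-1 (r = 0.98). Both fell in knockout, with log2 fold changes of -2.30 and -5.77 (limma adjusted p = 0.0210 and 1.98e-04). Bcl11b did not pass with median-ratio scaling (adjusted p = 0.138) or quantile normalization (0.0842). Closest to Socs2 were Paxip1, a DNA damage response adaptor (r = 0.97), Stfa2l1, a stefin-like gene with near-identical neighbours (r = 0.94), and Slfn4, a myeloid Schlafen gene (r = 0.93). Paxip1 did not pass (log2 fold change 0.93, limma adjusted p = 0.191), Slfn4 rose (3.06, adjusted p = 0.00625), and Stfa2l1 was listed at 0 in every wild-type library and averaged 24.4 FPKM in knockout. Closest to Cish were Mcrs1, Dctn4 and Ano6, at r between 0.79 and 0.81. The points share the genotype difference and the depth of each library, and the correlations are a description. For Socs4 the closest genes were Oma1, Wapal and Klhl7, for Socs5 Glyr1, Wdr1 and Ubfd1, for Socs6 Usp4, Cuedc2 and Fam50a and for Socs7 Fcf1, Rab12 and Ndufaf3, with r of 0.95 to 0.99. None of these 12 genes passed between genotypes, and their groups overlapped.

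Over 11 lists of JAK-STAT and SOCS-box genes 116 distinct genes were tested, of which 5 fell and none rose, or 4.31% beside 1.92% of all tested genes. The lists were chosen with earlier results of these data known, so the gap between these shares is no test of the lists. Of all tested genes 78.5% had a negative log2 fold change and 20.6% an unadjusted p under 0.05, and the counts given for each list stand beside these shares. List medians below are on deposited values. With median-ratio scaling the medians of the JAK and STAT, gamma-chain, gp130 and other SOCS-box lists stayed negative, between -0.43 and -0.098, that of the growth factor receptors was 0.70, and those of the other 6 lists turned positive, between 0.13 and 0.44. Among the common gamma-chain and TSLP receptors, whose signals SOCS1 and CIS restrain in part, 2 of 9 tested genes fell and none rose, with a median log2 fold change of -0.90. Il7r, the interleukin 7 receptor, was at 363, 243, 257 and 276 FPKM in wild type and at 34.4, 56.9, 14.0 and 20.7 in knockout (log2 fold change -3.30, SE 0.42, limma adjusted p = 0.00114). Il2rg, the common gamma chain, was at 272, 185, 305 and 336 FPKM and at 79.2, 16.2, 20.7 and 130 (-2.60, SE 0.58, adjusted p = 0.0412). The groups did not overlap for either gene. Il2rg did not pass without wild-type library 10, 11, 16 or 29 or without knockout library 29 (adjusted p = 0.0678 to 0.149).

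In the gp130 and interleukin 12 receptor list 1 of 6 tested genes fell, Il12rb1, the shared subunit of the interleukin 12 and 23 receptors, from 9.39 ± 3.50 to 1.42 ± 0.797 FPKM (SD, n = 4 each, log2 fold change -2.11, limma adjusted p = 0.0267). It did not pass with median-ratio scaling (adjusted p = 0.102) or quantile normalization (0.0943), nor without wild-type library 10, 11, 16 or 29 or knockout library 10 (0.0567 to 0.124). None of the 6 interferon and interleukin 10 family receptor genes passed, and 0 of them had an unadjusted p under 0.05. Ifngr1, the receptor chain through which interferon gamma signals, was at 45.3 ± 14.3 and 30.05 ± 12.2 FPKM (-0.62, adjusted p = 0.365), and Il10ra at 7.04 ± 1.77 and 5.29 ± 3.51 (-0.57, adjusted p = 0.489). Among 11 tested growth factor and haematopoietin receptors none passed, 3 had an unadjusted p under 0.05, and the median was 0.72. Flt3, a receptor of early progenitors, was at 1.53 ± 0.548 and 10.7 ± 6.65 FPKM (2.00, adjusted p = 0.0726). Flt3 passed with median-ratio scaling (adjusted p = 0.00623), with quantile normalization (0.00268) and without knockout library 16 (0.00422), among other settings. Csf1r, the macrophage growth factor receptor, was at 0.354 ± 0.484 and 2.97 ± 0.714 FPKM (1.59, adjusted p = 0.0658). Csf1r passed with quantile normalization (0.0468) and without knockout library 11 (0.0389), among other settings.

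None of the 11 JAK kinases and STAT factors passed, 10 of the 11 had a negative log2 fold change and 3 had an unadjusted p under 0.05. The list median of -0.67 lay close to the -0.52 of all genes. Jak2, the kinase of many haematopoietin and interferon gamma receptors, was at 31.7, 22.9, 33.3 and 43.6 FPKM in wild type and at 13.2, 1.57, 5.72 and 18.3 in knockout (-1.996, SE 0.56, limma adjusted p = 0.0977). Jak1, the partner kinase of gamma-chain receptors, was at 69.5 ± 5.82 and 33.6 ± 16.3 FPKM (-1.16, adjusted p = 0.155). The groups overlapped for neither kinase, and Jak2 passed with quantile normalization (limma adjusted p = 0.0492), with library weights (0.0325), with the column number as a block (0.0290) and without knockout library 11 (0.0306).

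Of 13 tested STAT5 targets 1 fell, Bcl2, which encodes a survival protein that interleukin 7 maintains in lymphocytes. Bcl2 was at 234, 174, 136 and 154 FPKM in wild type and at 30.7, 2.85, 7.71 and 45.5 in knockout, without overlap (log2 fold change -3.53, SE 0.65, limma adjusted p = 0.0156). It did not pass without wild-type library 10 or knockout library 29 (adjusted p = 0.0638 and 0.0706). The list median was -0.14. Of 15 tested interferon-induced genes none passed, with a median of -0.24 and 3 at an unadjusted p under 0.05. Cxcl10, an interferon-induced chemokine, was at 4.79 ± 5.04 and 0.424 ± 0.654 FPKM (-1.77, adjusted p = 0.128), and Gbp2, a guanylate-binding protein, at 14.0 ± 7.33 and 3.99 ± 3.38 (-1.76, adjusted p = 0.155). Of 11 STAT3 targets none passed, with a median of -0.12 and 3 at an unadjusted p under 0.05. Cebpd, a C/EBP factor of myeloid cells, was at 1.05 ± 0.591 and 8.38 ± 6.37 FPKM (2.00, adjusted p = 0.0658) and passed with median-ratio scaling (0.0358) and without knockout library 16 (0.0117), while Batf, a lymphocyte AP-1 factor, was at 30.6 ± 6.94 and 14.1 ± 5.17 (-1.11, adjusted p = 0.163).

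The machinery that carries out SOCS-box ubiquitination was present in both genotypes. None of its 9 genes passed, with a median of -0.19 and 1 at an unadjusted p under 0.05. Cul5, the cullin of SOCS-box ligases, was at 9.16 ± 2.55 and 4.04 ± 2.77 FPKM (-1.18, limma adjusted p = 0.209), and Ube2m, a NEDD8-conjugating enzyme that activates cullins, at 31.4 ± 15.3 and 19.8 ± 12.3 (-1.03, adjusted p = 0.381). Of 13 other tested SOCS-box genes 1 fell, Asb2, the specificity subunit of a cullin ligase, from 6.58 ± 2.53 to 0.629 ± 0.723 FPKM (-2.25, SE 0.45, limma adjusted p = 0.0222). Asb2 did not pass with median-ratio scaling (adjusted p = 0.0582), nor without wild-type library 10, 11, 16 or 29 or knockout library 10 (0.0524 to 0.106). Of 14 other inhibitors of JAK-STAT signalling none passed, with a median of -0.41 and 1 at an unadjusted p under 0.05. Pias4, an inhibitor of activated STATs, was at 2.48 ± 0.672 and 0.782 ± 0.794 FPKM (-1.05, adjusted p = 0.205), while Cblb, a ubiquitin ligase, was at 6.13 ± 2.63 and 2.73 ± 1.64 (-0.97, adjusted p = 0.246). Ptpn6, which encodes the phosphatase SHP-1 and was picked out after its values were seen, was at 20.4 ± 2.35 and 37.3 ± 14.1 FPKM (0.76, adjusted p = 0.256). It passed with median-ratio scaling (1.37, limma adjusted p = 0.0275) and quantile normalization (1.15, 0.0338).

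**Figure D4:**
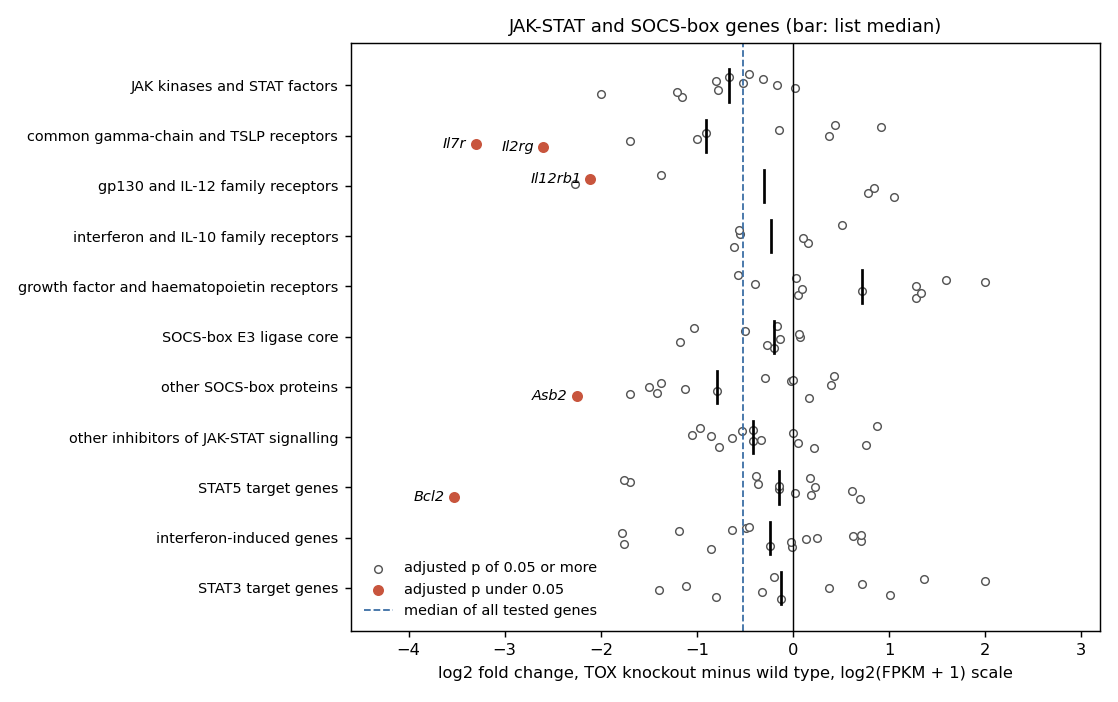
Log2 fold change, TOX knockout against wild type, as differences of log2(FPKM + 1), of the tested genes in 11 lists of JAK-STAT and SOCS-box genes, with filled points for an adjusted p under 0.05, a bar for each list median and a dashed line at -0.52, the median of all tested genes. Il7r, Il2rg, Il12rb1, Asb2 and Bcl2 are the 5 filled points, all to the left of 0.

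The summed levels of several cell type marker lists differed between the libraries in which Socs1 was measured. Counts of positive fold changes stand beside 21.5% positive among all tested genes, and counts at an unadjusted limma p under 0.05 beside 20.6%. ILC progenitor markers, Zbtb16, Gata3 and Id2 among them, summed to 2313 to 3168 FPKM in wild type and 139.5 to 599 in knockout. Of these markers 10 of 11 fell, beside 1.72% of all tested genes. Both the sum and the 10 include Tox, the gene knocked out, whose fall was given by the design. Neutrophil markers summed to 281 to 9777 FPKM in wild type and 12168 to 46350 in knockout, with 14 of 14 fold changes positive, 0 past the adjusted limma threshold and 13 with an unadjusted p under 0.05. With median-ratio scaling 1 of them, Mmp8, rose (2.61, limma adjusted p = 0.0336). S100a8 and S100a9 were the highest neutrophil markers in every library and so weighed most in the sums. On deposited values 5 of the 14 neutrophil markers were higher in knockout without overlap, beside 1.09% of all tested genes. Erythroid markers had 11 of 11 positive and summed to 5374 to 26975 FPKM and 10545 to 182207, with overlap, and 8 had an unadjusted p under 0.05. Among them the entries of Hba-a1 and Hba-a2 lie on the same stretch of chromosome 11. Those of Hbb-b1 and Hbb-b2 share a stretch of chromosome 7, so each pair counts the same locus repeatedly. Of 8 tested monocyte markers 7 were positive, with sums of 157 to 335 and 127 to 684 FPKM. Basophil and mast cell markers had 7 of 7 positive, with sums of 78.1 to 251 and 163 to 745 FPKM, while Prss34 and Cd200r3 averaged 0.00727 and 0.0176 FPKM in wild type. B lineage and plasma cell markers had 7 of 7 positive, with sums of 46.0 to 286 and 117 to 1002 FPKM, and Pax5 averaged 0.0296 and 0.0440. T cell markers summed to 72.9 to 85.8 and 16.03 to 123 FPKM, with 1 of 5 tested, Bcl11b, lower on deposited values, and Cd4 averaged 0.00616 and 0.221. The log2 fold changes of Cd3e, Cd3d and Cd3g were positive, at 1.05, 1.08 and 1.21, and did not pass (limma adjusted p = 0.240, 0.276 and 0.390). NK cell markers summed to 155 to 235 and 42.5 to 558 FPKM, with 1 of 6 tested, Eomes, lower. Stem and multipotent progenitor markers summed to 53.5 to 66.1 and 20.5 to 166 FPKM, with 1 of 5 tested, Hlf, lower (limma adjusted p = 0.0484). With median-ratio scaling Hlf did not pass (adjusted p = 0.0901), while Flt3 and Cd34 rose (0.00623 and 0.0382). Of the monocyte, basophil and mast cell, and B lineage lists 0 genes passed in limma, with 6, 5 and 2 at an unadjusted p under 0.05. With median-ratio scaling Irf8 and Ms4a6c of the monocyte list rose (limma adjusted p = 0.0121 and 0.0141), as did Ms4a2 of the basophil and mast cell list (0.0446). The part of cell composition in the levels of Socs1, Socs2 and Il7r was not tested.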

How the data were processed

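The deposited table holds FPKM per gene, which the authors computed with Cufflinks on mm10, per the submitters' processing notes; the sources used here name no version, aligner or annotation. The 8 libraries, 4 per genotype, were grouped by the genotype in their labels; column numbers name libraries, and match no replicate number. Absolute depth is unknown. From the steps between low values, depth relative to wild-type library 10 was 0.722, 0.829 and 1.44 in knockout 10, wild-type 16 and knockout 16, and relative to wild-type library 29 it was 0.702, 0.796 and 0.901 in knockout 29, wild-type 11 and knockout 11. Barcodes 17 to 20 (libraries 10 and 16) and 40 to 43 (29 and 11) were taken as 2 barcode runs, each holding both genotypes. No 2 libraries were identical.

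Genes averaging an FPKM of 1 or more were tested on log2(FPKM + 1) with limma 3.58.1 in R 4.3.3 (trended empirical Bayes, Benjamini-Hochberg adjustment over 10693 genes, threshold 0.05), after a test on simulated data. In the simulated data 50 genes were given each size of log2 change. Of these 4% passed at a change of 1, 54% at 2, 96% at 3 and 100% at 4. A gene that did not pass may therefore still differ, above all where its change is 2 or less. False calls numbered 17, a larger share of all calls than the threshold of 0.05 aims at, so a gene that passed may also be a false call. Whether these rates hold for genes of low FPKM was not tested. Exact permutation tests used Python 3.11.15 and numpy 2.4.6, and confidence intervals used scipy 1.17.1. Median-ratio scaling, quantile normalization and other settings were alternatives. The members and gene lists were chosen with earlier results of these data known. In each pathway list up to 4 called genes with the largest change were named, or the 2 with the smallest p where none was called; for each member the 3 genes of highest Pearson r with a mean FPKM of at least 5 were named. One gene that this rule took is not reported here. Promoters came from RefSeq (GRCm38.p6).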

Additional observations from a re-analysis of the deposited data

Results flagged for a closer look

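Among 56 groups of 4 libraries, 4 held a value far from the other 3 by Dixon's criterion, which chance alone meets in about 1 of 20 groups. Cish in knockout library 16 was at 15.6 FPKM against 8.54 to 9.14 in the other knockout libraries. Socs6 in wild-type library 16 was at 1.71 FPKM against 5.95 to 6.73. Cxcl10 in knockout library 11 was at 1.40 FPKM against 0 to 0.189, and Ube2m in knockout library 16 was at 1.39 FPKM against 25.2 to 26.6. Of these 4 values, 2 come from knockout library 16, the library with the fewest genes at an FPKM of at least 1.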

How the results depend on the processing

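The log2 fold change of Socs1 stayed negative in all 24 alternative settings and passed in 21. It did not pass with no filter on low values (-2.84, limma adjusted p = 0.0814), median-ratio scaling (-2.23, 0.104) or the first barcode run alone (-2.55, 0.628), and in these 3 settings 0 members fell. Leaving out 1 library at a time gave -3.26 to -2.56 for Socs1 and 1 member called each time. No member rose in any setting, and for Socs2 adjusted p ranged from 0.0678 to 0.675. Signs turned, without a call, for Socs5 (0.12 with median-ratio scaling, 0.057 with quantile normalization), Socs6 (0.027 with quantile normalization), Cish (-0.028 with library weights, -0.41 in the second barcode run), Ifngr1 (0.13 in the second run) and Il10ra (0.016 with quantile normalization, 0.16 in the second run); the cause was not tested. Calls were lost in 10 of 24 settings for Il2rg, 12 of 24 for Il12rb1, 10 of 23 for Asb2, 5 of 24 for Bcl2 and 1 of 24 for Il7r.

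The 184 genes that fell became 96 with a pseudocount of 0.1, 67 with no filter, 106 with a mean FPKM of at least 5, 117 with median-ratio scaling, 457 with library weights, 5 and 60 in the first and second barcode runs, and 335 at an adjusted p under 0.10. Genes that rose, 21, became in the same order 10, 7, 10, 93, 271, 0, 35 and 65, and were 116 with quantile normalization, 52 at the same sum without globin and 107 without knockout libraries 16 and 29. Pathway genes that fell, 5, became 2, 1, 3, 3, 12, 0, 1 and 8 in that order. Pathway genes that rose, 0, became 3 with median-ratio scaling, 5 with quantile normalization, 2 at the same sum without globin, 5 with library weights, 3 without knockout libraries 16 and 29 and 3 at an adjusted p under 0.10. Leaving out 1 library gave 75 (without wild-type 11) to 578 (without knockout 11) genes that fell, 6 (without wild-type 29) to 126 (without knockout 16) that rose, 1 to 12 pathway genes that fell and 0 to 3 that rose.

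Column numbers were shared between genotypes, and the labels do not say whether they pair libraries. Deviations of same-numbered libraries correlated at 0.04, 0.01, -0.02 and 0.26 for 10, 16, 29 and 11. Not every library correlated best with its own number, and these values cannot decide whether the numbers are pairs. With the number as a replicate block, Socs1 gave -2.84 (limma adjusted p = 0.00185), no family call changed, 267 genes fell, 77 rose, 7 pathway genes fell and 2 rose, with 1 of the JAK and STAT list, Jak2, among those that fell (adjusted p = 0.0290). Without read counts, the depth behind low values such as Socs3 is unknown.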
